A study of Mus musculus with 6 samples.

Results

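The transcripts of the mouse mitochondrial genome were taken as every gene of the count table whose name starts with mt-. The rule gave 37 of 45706 genes, namely 13 mRNAs, 2 rRNAs and 22 tRNAs, and all 37 lie on the mitochondrial chromosome of GRCm38 under the same identifiers. The libraries came from 3T3-L1, an established line of mouse fibroblasts able to form adipocytes when given a hormonal cocktail. All 6 libraries were made from total RNA on day 7 of differentiation with IBMX, insulin, dexamethasone and rosiglitazone (spelled roziglitazone in the labels). The 3 scrambled control libraries (genotype WT) came from cells that stably expressed a scrambled short hairpin RNA, and the 3 RBMS1 knockdown libraries (genotype RBMS1KD) from cells that expressed a hairpin against Rbms1, which encodes an RNA-binding protein. Both groups had passed through lentiviral transduction and puromycin selection. The labels do not say whether the replicates of a group were separate transductions or separate cultures, so the p-values measure only the spread between these samples.

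Mitochondrial DNA is transcribed by its own RNA polymerase from both strands into long precursors. The tRNAs that lie between the genes are cut out of these precursors, which frees the rRNAs and mRNAs. The mRNAs encode core subunits of respiratory complexes I, III, IV and V, and the rRNAs build the mitochondrial ribosome that translates them. In adipocytes the respiratory chain oxidizes fuels and sustains the synthesis and storage of lipid. Fragments of mitochondrial DNA have also been copied into nuclear chromosomes during evolution, and reads from a fragment of identical sequence can be assigned to either place.

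Several mitochondrial genes had such nuclear copies in the count table, and their sequences are shown first because they bear on the value of every gene concerned. Annotated transcripts that matched a mitochondrial gene over at least 100 bases at 95% identity or more gave 11 nuclear rows, all of them pseudogenes. Copies outside annotated transcripts, among them any in the stretch of chromosome 1 between Gm28661 and Gm10925, where mt-Atp8 would lie if the order of the mitochondrial genes is kept, were not searched for. Of these, 7 lay on the minus strand of one stretch of chromosome 1 (chr1:24611535-24616197, GRCm38) and carried 99.89% of the counts of all copies. Gm28661 matched mt-Co2, Gm10925 matched mt-Atp6, Gm28437 matched mt-Co3 and Gm10222 matched mt-Nd4l without a mismatch over 681, 678, 783 and 294 bases. Gm28439 likewise matched mt-Nd4 without a mismatch over 876 bases, but held only 36.2 counts over all libraries. The first 60 bases of mt-Co2 (chrM:7013-7072, plus strand) and of Gm28661 (chr1:24615506-24615565, minus strand) show the identity, so that a read from this stretch cannot be placed by its letters.
mt-Co2: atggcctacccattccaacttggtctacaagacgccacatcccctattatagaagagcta
Gm28661: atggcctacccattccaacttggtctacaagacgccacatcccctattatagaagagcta
Gm28438 differed from mt-Nd3 at 1 of 345 aligned bases, T3C counted from the 5′ end of mt-Nd3. The first 60 bases of mt-Nd3 (chrM:9459-9518, plus strand) and of Gm28438 (chr1:24613060-24613119, minus strand) follow, with the differing base in capitals.
mt-Nd3: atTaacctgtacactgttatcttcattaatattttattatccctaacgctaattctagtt
Gm28438: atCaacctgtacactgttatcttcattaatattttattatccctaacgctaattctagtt
Gm29216 matched only the 3′ part of mt-Co1, 483 bases with 1 mismatch, A1066T counted from the 5′ end of mt-Co1. The stretch that holds it (chrM:6390-6449, plus strand, and chr1:24616129-24616188, minus strand) is shown in the same way.
mt-Co1: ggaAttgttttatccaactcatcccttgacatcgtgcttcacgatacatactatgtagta
Gm29216: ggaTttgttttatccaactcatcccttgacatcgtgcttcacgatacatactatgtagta

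The deposited values are estimated counts per gene, and an estimate that divides reads between matching transcripts need not be whole. Values that were not whole (beyond 1e-06) occurred in 9 of the mitochondrial mRNAs, the same 9 that had a matching nuclear row. The other 4 mRNAs (mt-Nd1, mt-Atp8, mt-Nd6 and mt-Cytb) and both rRNAs were whole in all 6 libraries. The nuclear copies together held 22.0% to 26.8% of the mitochondrial mRNA pool (the mt- rows plus their copies) in the controls and 28.2% to 29.2% in the knockdown libraries. The share of each pool that was counted in the mitochondrial row differed between genes and between libraries of 1 group. For mt-Co2 the mitochondrial row held 13.6%, 21.3% and 6.12% of the pool in controls 1 to 3 and 7.96%, 5.34% and 4.96% in knockdown libraries 1 to 3. The third control lay below the first knockdown library here, so the groups overlapped. For mt-Atp6 the shares were 38.2%, 56.3% and 40.1% against 27.9%, 29.3% and 34.7%, without overlap. For mt-Co3 they were 29.7%, 23.9% and 23.3% against 36.3%, 16.0% and 16.0%, with 1 knockdown library above all controls. The mt-Nd3 row held no count in control 2 and knockdown 1 and at most 8.22% of its pool elsewhere, whereas mt-Nd4l held its whole pool in control 2 and 24.6% to 63.6% in the other libraries. For mt-Co1, whose first part has no counterpart on chromosome 1, the share was 88.7% to 94.1% in all libraries. For mt-Nd2, mt-Nd4 and mt-Nd5 the copies held under 0.1% of the pool in each library.

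**Figure D1:**
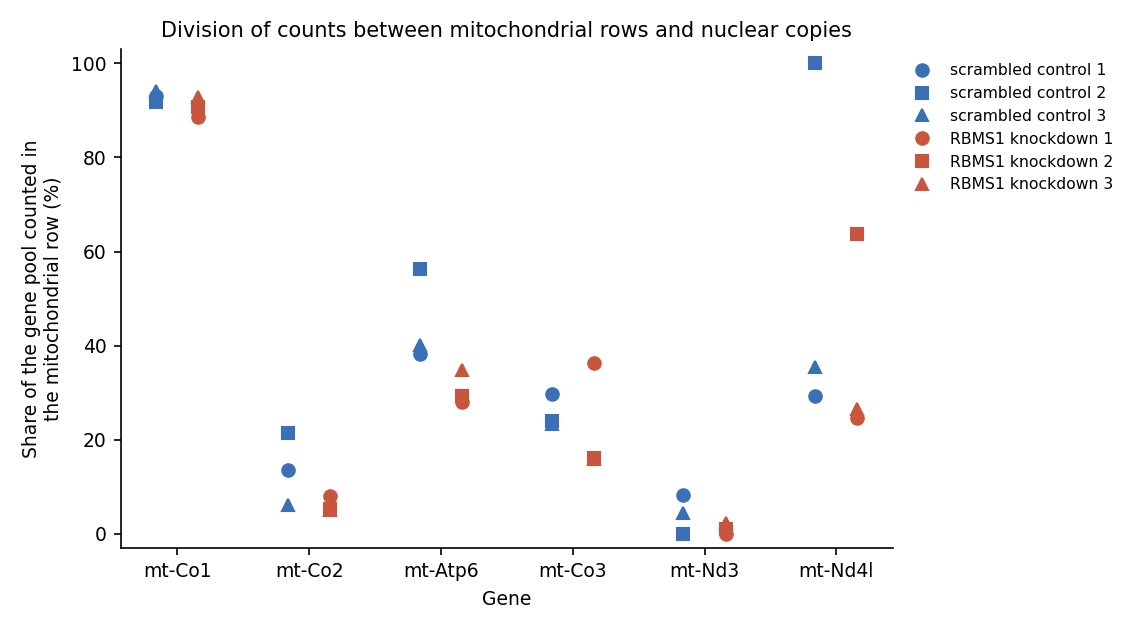
Share of each gene's pool (mitochondrial row plus matching nuclear copies, in %) that was counted in the mitochondrial row, in each library. Shown are the 6 genes whose copies held the most counts (scrambled control in blue, RBMS1 knockdown in red, replicate by symbol). mt-Co1 stays between 88.7% and 94.1%, mt-Co2 and mt-Nd3 lie below 25%, and mt-Nd4l spreads from 24.6% to 100%.

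The libraries themselves differed in depth and in ribosomal RNA. The controls held 3142699 to 5985179 counts and the knockdown libraries 6173311 to 11073111. Rows derived from cytosolic rRNA took 29.1% of the counts of control 2 and 6.95% to 13.9% of the others, and control 2 was also the shallowest library and had the smallest TMM factor (trimmed mean of M-values, which scales a library so that most genes stay level; 0.642, against 0.974 to 1.23 elsewhere). Levels are given below in CPM, the counts of a gene per 1000000 counts of the TMM-scaled library size. Rbms1, the targeted gene, stood at 113, 102 and 99.6 CPM in the controls and 49.2, 61.4 and 84.0 CPM in the knockdown libraries. All knockdown libraries were lower, with a log2 fold change of -0.69 ± 0.20 (SE) and an adjusted p of 0.185 in edgeR. The summed CPM of 10 adipocyte markers was 22856 to 25762 in the controls and 12287 to 21615 in the knockdown libraries, and 9 of the 10 were below 0 in log2 fold change (median -0.42), while Cd36 was above it. The labels give the cell type as fibroblast. The 7 fibroblast and preadipocyte markers summed to 9072 to 10417 CPM and 5125 to 11468 CPM, respectively, with 5 of 7 below 0 (median -0.24). No marker of either list passed the test. Of 5 markers of other adipose cells, Ptprc, Adgre1 and Ucp1 (leukocyte, macrophage and brown adipocyte genes) were at 0 in every library, and the 5 summed to at most 1.99 CPM. The part of these differences in the results that follow was not tested. In such bulk RNA, fewer mitochondria per cell and less RNA per mitochondrial genome cannot be told apart, nor can fewer cells of a type and less RNA per cell.

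The mitochondrial mRNAs as a class stood lower in the knockdown libraries. The 13 mRNAs summed to 54359, 60440 and 51002 CPM in controls 1 to 3 and to 32880, 41301 and 36050 CPM in knockdown libraries 1 to 3. All knockdown libraries lay below all controls, and the mean log2 difference was -0.59 (exact permutation test, two-sided, p = 0.1, the smallest that 3 against 3 samples can give). Without control 2 it was -0.53. With the nuclear copies counted in, the sums were 73423, 77495 and 69646 CPM against 46131, 57496 and 50928 CPM, again without overlap, and the difference was -0.52 (exact permutation p = 0.1). As a share of all counts, before any scaling, the mRNAs took 5.67%, 3.88% and 4.96% in the controls and 3.71%, 4.52% and 4.43% in the knockdown libraries, and these ranges overlapped. Without TMM factors the difference of the sums was -0.18, where the median of all tested genes moved to 0.37.

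Gene by gene, all 13 mRNAs had a log2 fold change below 0 with a median of -0.68, beside 0.0044 over all tested genes, and without TMM factors 12 of 13 were below 0, mt-Nd2 being above it. The edgeR test called 140 of 11440 tested genes at an adjusted p of 0.1 or less (1.22%), and 1 of the 13 mRNAs, mt-Co2, was among them. All knockdown libraries were below all controls for 9 of the 13, against 9.55% of all tested genes. With the nuclear copies added to their genes, 12 of 13 were below 0 (10 of 13 without TMM factors) with a median of -0.48. All knockdown libraries were then below all controls for 10 of the 13, against 9.54% of all genes. In edgeR 0 of the 13 were then called, where 139 genes were called in all (1.22%), and 6 of the 13 had an unadjusted p under 0.05. Without control 2, the library high in ribosomal RNA, 13 of 13 were below 0 as deposited (median -0.64) and 12 of 13 with the copies added (median -0.43). In both tables edgeR then called 12 genes in all (0.101%), none of them among the 13. DESeq2, which called 430 genes (3.2%) and is the tool of the study's own methods, called 7 of the 13 as deposited and 6 with the copies added (3.18% of all genes). The calls shared by both tables under DESeq2 were mt-Co1, mt-Co2, mt-Atp8, mt-Nd4, mt-Nd5 and mt-Cytb, and mt-Atp6 was called only as deposited.

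**Figure D2:**
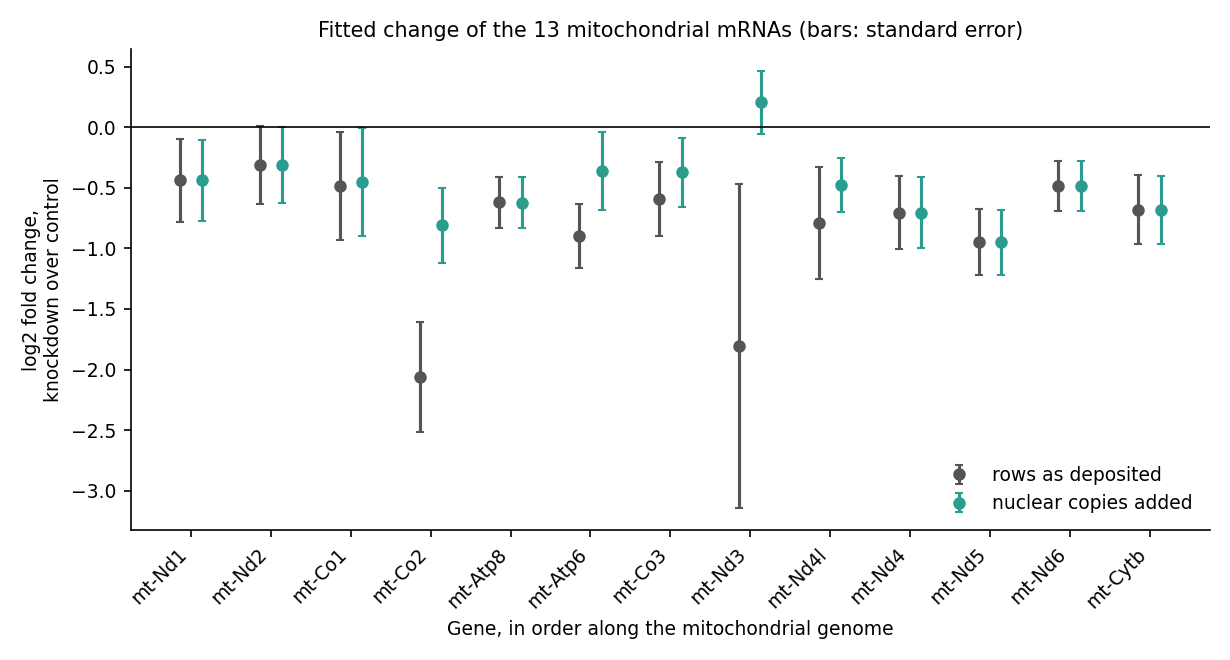
Fitted log2 fold change of knockdown over control (vertical axis; bars, standard error from edgeR, 3 libraries per group) for the 13 mitochondrial mRNAs in genome order, for the rows as deposited (grey) and with the nuclear copies added (green). mt-Co2 moves from -2.06 to -0.81 and mt-Nd3 from -1.81 to 0.21, while the 4 genes for which no annotated copy was found stay in place.

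The mRNAs of complex IV, cytochrome c oxidase, are mt-Co1, mt-Co2 and mt-Co3, which encode its catalytic core. mt-Co2 (chrM:7013-7696), the subunit that takes electrons from cytochrome c, stood at 1039, 1947 and 434 CPM in the controls and 330, 268 and 222 CPM in the knockdown libraries as deposited. All knockdown libraries were lower, yet the highest control was 4.48 times the lowest, and the log2 fold change was -2.06 ± 0.45 (SE, edgeR, adjusted p = 0.0987). The call was lost in edgeR without control 1 (adjusted p = 0.218), without control 2 (-1.43, adjusted p = 0.302), without knockdown 2 (0.288) and without knockdown 3 (0.149). The calls over all genes were fewer in these fits too, at 0.179%, 0.101%, 0.326% and 0.997%. The call held without control 3 (0.0663), where 0.271% of genes were called, and without knockdown 1 (0.0433), where 5.94% were called. With Gm28661 and the minor copy Gm13341 added, mt-Co2 stood at 7616, 9139 and 7102 CPM against 4142, 5007 and 4477 CPM. The groups still did not overlap, the highest control was 1.29 times the lowest, and the fold change was -0.81 ± 0.31 (SE, edgeR, adjusted p = 0.324). Gm28661 by itself had a log2 fold change of -0.67 ± 0.30 (SE, edgeR, adjusted p = 0.401).

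mt-Co1, which holds the oxygen-reducing centre, was the most abundant mRNA of the class in counts. It stood at 18870, 19078 and 17284 CPM in the controls and 12515, 13424 and 13544 CPM in the knockdown libraries. The groups were apart and each was tight, with a log2 fold change of -0.48 ± 0.45 (SE, edgeR, adjusted p = 0.720). For the third core subunit, mt-Co3, the values were 1904, 1321 and 1441 CPM against 1534, 755 and 808 CPM, and knockdown 1 lay within the controls. With Gm28437 added they were 6407, 5525 and 6173 CPM against 4222, 4712 and 5054 CPM, which no longer overlapped, and the fold change went from -0.59 ± 0.30 to -0.37 ± 0.29 (SE, edgeR, adjusted p = 0.472 and 0.652). Without knockdown 1, where edgeR called 696 genes in all (5.94%), mt-Co3 as deposited was among them (-0.99, adjusted p = 0.0383), and with the copy added it was not (-0.30, adjusted p = 0.634).

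The ATP synthase mRNAs mt-Atp8 and mt-Atp6 encode membrane subunits of complex V and share 43 bases of 1 transcript, read in different frames. The shared stretch (chrM:7927-7969, plus strand) is shown because reads within it match both genes.
mt-Atp8 and mt-Atp6: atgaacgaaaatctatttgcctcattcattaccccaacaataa
mt-Atp8 had no match among the annotated nuclear transcripts at the length searched, but its 43 shared bases lie within the match of Gm10925 to mt-Atp6. mt-Atp8 stood at 2316, 1838 and 1773 CPM in the controls and 1173, 1350 and 1330 CPM in the knockdown libraries, a log2 fold change of -0.62 ± 0.21 (SE, edgeR, adjusted p = 0.269). mt-Atp6 stood at 3215, 4440 and 3491 CPM against 1665, 2152 and 2160 CPM as deposited, -0.90 ± 0.26 (SE, edgeR, adjusted p = 0.187). Neither gene's groups overlapped. With Gm10925 added, mt-Atp6 came to 8411, 7885 and 8706 CPM against 5959, 7336 and 6218 CPM and its fold change to -0.36 ± 0.32 (SE, edgeR, adjusted p = 0.710), and without TMM factors to 0.0075. Gm10925 alone was near 0 (-0.03 ± 0.31, SE). The ratio of mt-Atp8 to mt-Atp6 with its copy, 2 parts of 1 transcript, was 0.275, 0.233 and 0.204 in the controls and 0.197, 0.184 and 0.214 in the knockdown libraries, a log2 difference of -0.25 within overlapping ranges (exact permutation p = 0.2).

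Complex I, the NADH dehydrogenase, takes 7 mitochondrial subunits, all of them in its membrane arm. mt-Nd1, near the quinone site, stood at 8072, 8582 and 7291 CPM in the controls and 4510, 7003 and 6167 CPM in the knockdown libraries. mt-Nd2, a proton-pumping subunit, stood at 3666, 5579 and 4696 CPM against 2855, 4869 and 3502 CPM. The groups were apart for mt-Nd1 and overlapped for mt-Nd2, and their log2 fold changes were among the smallest of the class, -0.44 ± 0.34 and -0.31 ± 0.32 (SE, edgeR, adjusted p = 0.659 and 0.751). Without knockdown 1 mt-Nd1 was at -0.27, and mt-Nd2 ran from -0.14 (without knockdown 1) to -0.53 (without knockdown 2). Without TMM factors mt-Nd2 was at 0.10.

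mt-Nd4, another proton-pumping subunit, stood at 5064, 6530 and 5577 CPM in the controls and 3165, 4245 and 3131 CPM in the knockdown libraries. mt-Nd5, the subunit at the far end of the membrane arm, stood at 4187, 4985 and 4080 CPM against 2124, 2796 and 1938 CPM. Neither pair of groups overlapped, with log2 fold changes of -0.70 ± 0.30 and -0.95 ± 0.27 (SE, edgeR, adjusted p = 0.377 and 0.179). Nearly none of the counts of either gene lay in matching nuclear rows, although Gm28439 matched 876 bases of mt-Nd4 without a mismatch. How reads from that stretch were divided was not tested. mt-Nd5 had the lowest adjusted p of the class once the copies were added (0.172). It was 0.0978 without knockdown 1, where 6.03% of all genes were called, and 0.266 to 0.472 without each of the other libraries in edgeR, and without TMM factors the fold change was -0.56 (adjusted p = 0.433). DESeq2 gave it an adjusted p of 0.000175.

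The small subunits mt-Nd3 and mt-Nd4l were the least certain. mt-Nd3 as deposited stood at 73.4, 0 and 26.3 CPM in the controls and 0, 7.01 and 21.6 CPM in the knockdown libraries, and its fitted log2 fold change of -1.81 ± 1.34 (SE, edgeR, adjusted p = 0.637) rests on libraries at 0. With Gm28438 added, it stood at 893, 520 and 582 CPM against 580, 765 and 955 CPM. The ranges overlapped almost entirely and the direction turned, to 0.21 ± 0.26 (SE, edgeR, adjusted p = 0.802). Leaving out each library moved mt-Nd3 as deposited from -0.53 (without control 1) to -3.23 (without knockdown 3). With the copy added it ran from 0.02 (without knockdown 3) to 0.48 (without control 1). mt-Nd4l, which shares 7 bases with mt-Nd4 on the same transcript, stood at 237, 482 and 208 CPM against 90.7, 320 and 126 CPM as deposited. With Gm10222 added it came to 812, 482 and 587 CPM against 369, 502 and 478 CPM, overlapping through control 2, and the fold change went from -0.79 ± 0.46 to -0.48 ± 0.22 (SE, edgeR, adjusted p = 0.529 and 0.423). With each library left out, the value as deposited ran from -0.32 (without control 2) to -1.49 (without knockdown 2), and with the copy added from -0.25 (without control 1) to -0.64 (without control 2).

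mt-Nd6 is the only mRNA transcribed from the other strand than the remaining 12, and no annotated copy of it was found. It stood at 414, 426 and 344 CPM in the controls and 312, 332 and 201 CPM in the knockdown libraries, a log2 fold change of -0.49 ± 0.21 (SE, edgeR, adjusted p = 0.386). The groups did not overlap, and without knockdown 3 the fold change was -0.29. Within the mRNAs of each library, with copies, its share was 0.564%, 0.550% and 0.494% against 0.677%, 0.577% and 0.396%, so the knockdown libraries lay on both sides of the controls (exact permutation p = 1). Without copies the log2 difference of this share was 0.08 (exact permutation p = 0.8), and it turned to -0.090 without knockdown 1. The sources used here do not give the strand setting of the counting, on which the separation of mt-Nd6 from the end of mt-Nd5 opposite it depends.

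mt-Cytb encodes cytochrome b, the only mitochondrial subunit of complex III. It stood at 5301, 5233 and 4357 CPM in the controls and 2607, 3782 and 2898 CPM in the knockdown libraries, without overlap. The log2 fold change was -0.68 ± 0.29 (SE, edgeR, adjusted p = 0.374; 0.0254 in DESeq2).

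Levels of the mRNAs were compared with each other as CPM per kilobase of gene, with the copies added. In the controls the means ran from 12818 for mt-Co1 to 761 for mt-Nd6. mt-Co1, mt-Atp6 (12238), mt-Co2 (11626), mt-Atp8 (9685), mt-Nd1 (8340) and mt-Co3 (7698) formed a run in which each overlapped its neighbour over the 3 libraries. A gap separated them from mt-Nd2 (4477), mt-Cytb (4339) and mt-Nd4 (4155), and a further gap from mt-Nd5 (2422), mt-Nd4l (2111) and mt-Nd3 (1911). mt-Nd6 lay below them without overlap. In the knockdown libraries mt-Atp6 (9551) and mt-Co1 (9381) led, apart from mt-Co2 (6640), and mt-Nd5 (1253) came after mt-Nd3 (2204) and mt-Nd4l (1514). The ranges of mt-Nd5 and mt-Nd4l over the 3 libraries overlapped in both groups, while within libraries mt-Nd5 was the lower in all 3 knockdown libraries and in 1 of 3 controls. As deposited the order differed, and mt-Co2 stood at 1667 and mt-Nd3 at 95.5 CPM per kilobase in the controls.

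**Figure D3:**
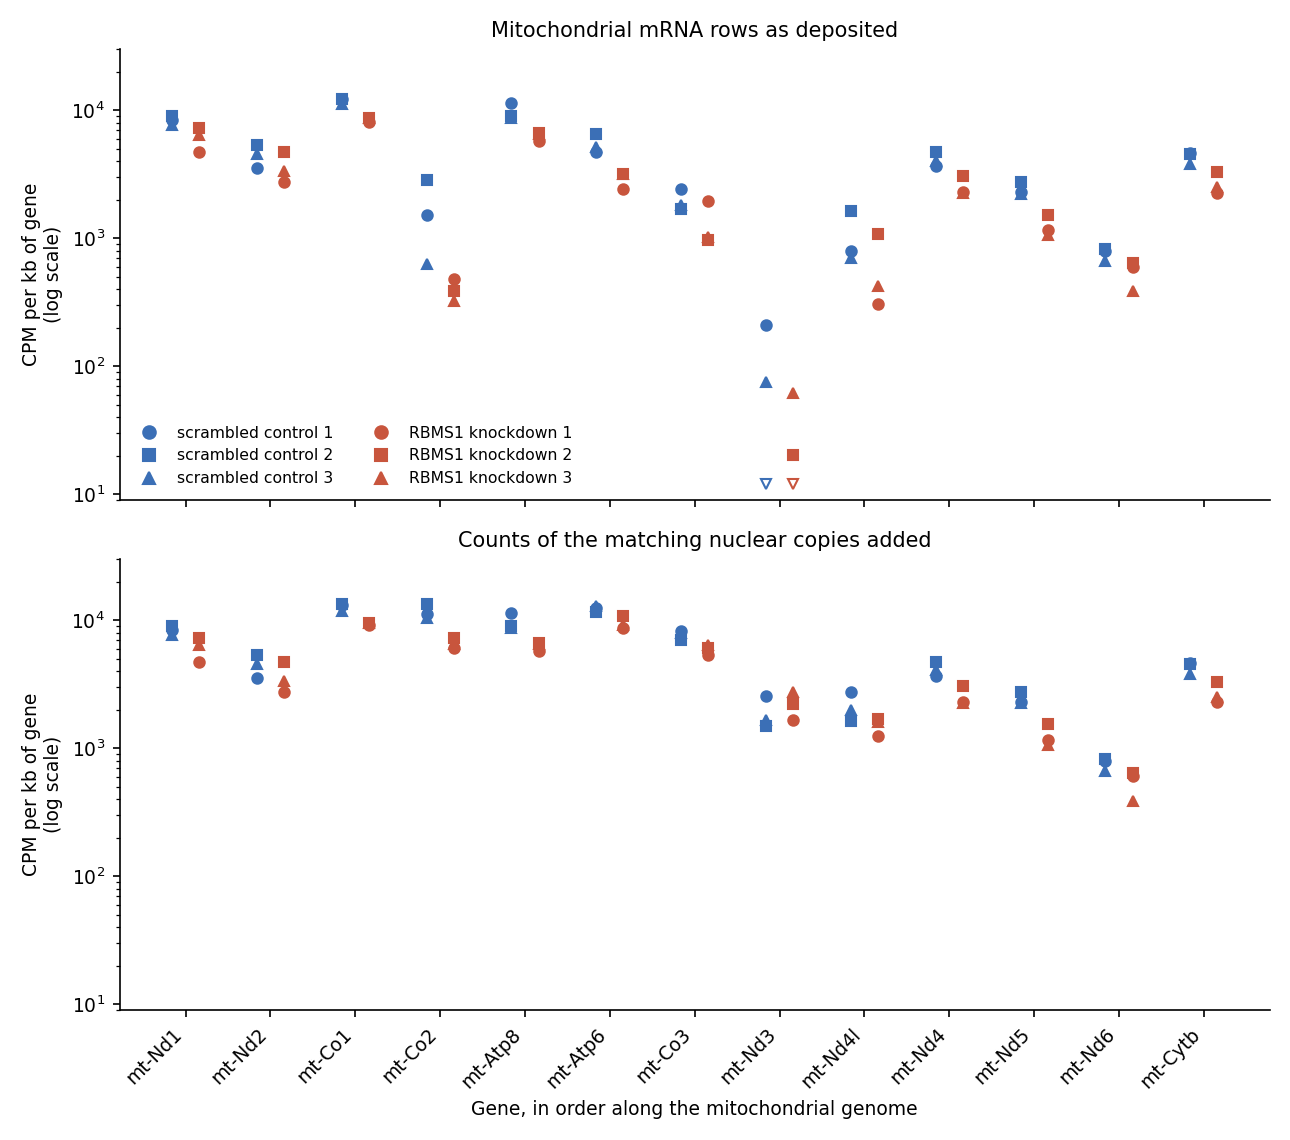
Level of each mitochondrial mRNA in each library, in CPM per kilobase of gene on a log axis, in genome order, as deposited (upper panel) and with the nuclear copies added (lower panel). Open triangles at the lower edge mark the 2 libraries in which mt-Nd3 was at 0, and with the copies added the control mean of mt-Nd3 is 1911 and that of mt-Co2 11626.

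The make-up of the mRNA pool was then compared within libraries, which is independent of library scaling. With copies added, mt-Nd5 took 5.70%, 6.43% and 5.86% of the mitochondrial mRNA counts in the controls and 4.60%, 4.86% and 3.81% in the knockdown libraries, and mt-Co2 took 10.4%, 11.8% and 10.2% against 8.98%, 8.71% and 8.79%. mt-Nd3 took 1.22%, 0.671% and 0.836% against 1.26%, 1.33% and 1.88%. For these 3 genes the groups did not overlap, with log2 differences of -0.44, -0.29 and 0.73, and each had an exact permutation p of 0.1 and a Benjamini-Hochberg adjusted p of 0.433 over the 13 shares. The other 10 mRNAs overlapped between groups, and their log2 differences lay between -0.19 for mt-Nd4 and 0.19 for mt-Nd2. As deposited, mt-Nd5 took 7.70% to 8.25% of the counts in the controls and 5.38% to 6.77% in the knockdown libraries, also without overlap. The other two overlapped as deposited: mt-Co2 took 1.91%, 3.22% and 0.852% in the controls, the last below knockdown 1 (exact permutation p = 0.2), and mt-Nd3 took 0% to 0.135% against 0% to 0.0599%, with the lower mean in the knockdown libraries.

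**Figure D4:**
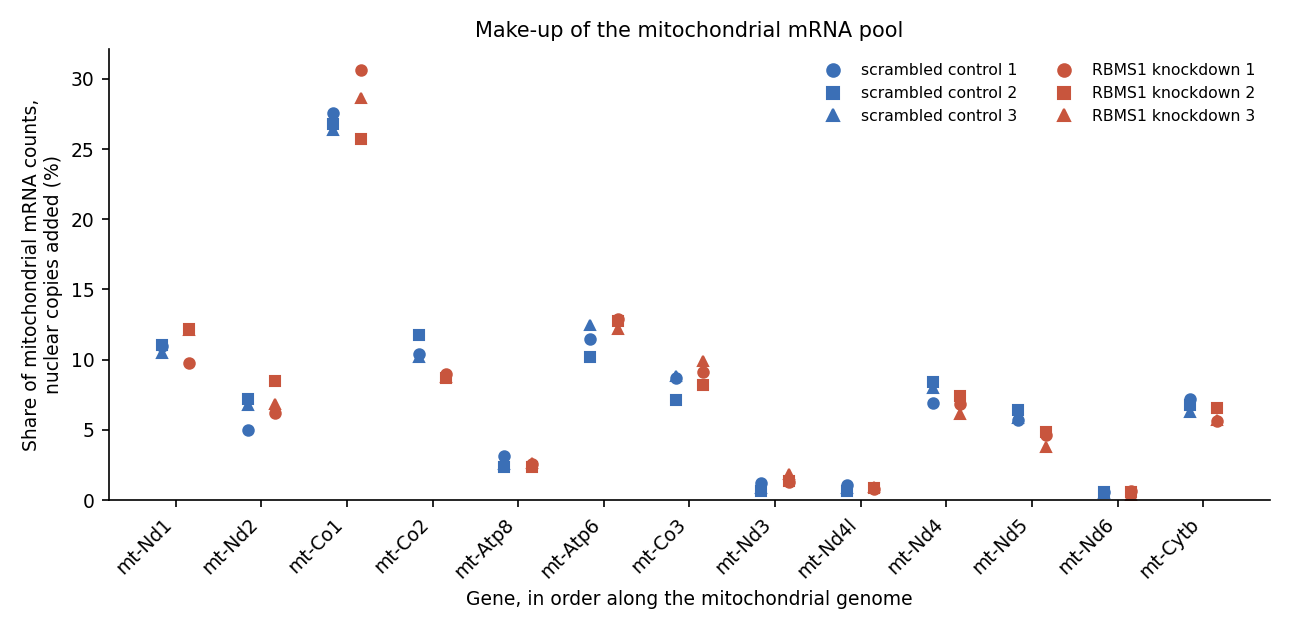
Share of each gene in the mitochondrial mRNA counts of its library (%), nuclear copies added, in genome order (blue, scrambled control; red, RBMS1 knockdown; the symbol gives the replicate). mt-Nd5 and mt-Co2 lie lower and mt-Nd3 higher in all 3 knockdown libraries, and the remaining genes overlap.

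The rRNAs differed from the mRNAs in that 1 library stood far above the rest. mt-Rnr1 (12S, chrM:70-1024), the rRNA of the small ribosomal subunit, stood at 18407, 142532 and 33943 CPM in the controls and 9878, 15690 and 7272 CPM in the knockdown libraries. mt-Rnr2 (16S, chrM:1094-2675), the rRNA of the large subunit, stood at 4294, 75360 and 13680 CPM against 3233, 5538 and 2327 CPM. Control 2 lay far above all other libraries for both. The knockdown libraries were all below the controls for mt-Rnr1 and overlapped control 1 for mt-Rnr2. The log2 fold changes were -2.57 ± 0.95 and -3.07 ± 0.99 (SE, edgeR, adjusted p = 0.305 and 0.231), and none of the 2 passed in edgeR or DESeq2 (adjusted p = 0.144 and 0.137), although both had an unadjusted p under 0.05 in edgeR. Without control 2 they were -1.26 ± 0.66 and -1.28 ± 0.60 (SE, edgeR, adjusted p = 0.651 and 0.605).

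These libraries had been depleted of ribosomal RNA enzymatically, so the rRNA counts are what the depletion left. The ratio of rRNA to mRNA counts was 0.418, 3.61 and 0.934 in the controls and 0.399, 0.514 and 0.266 in the knockdown libraries. The groups overlapped through control 1, and the log2 difference of -1.56 did not pass (exact permutation p = 0.2), with a range of -2.27 to -0.72 when each library was left out. The rows derived from cytosolic rRNA summed to 29.1% of the counts of control 2, and did not move together. Yam1 took 27.1% there and 1.35% to 9.63% elsewhere, whereas Gm26917 took 1.99% there and 3.55% to 7.53% elsewhere. Its mt-Rnr1 to mt-Rnr2 ratio was the lowest, 1.89, against 4.29 and 2.48 in the other controls and 3.06, 2.83 and 3.12 in the knockdown libraries. How far the depletion sets these values was not tested.

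**Figure D5:**
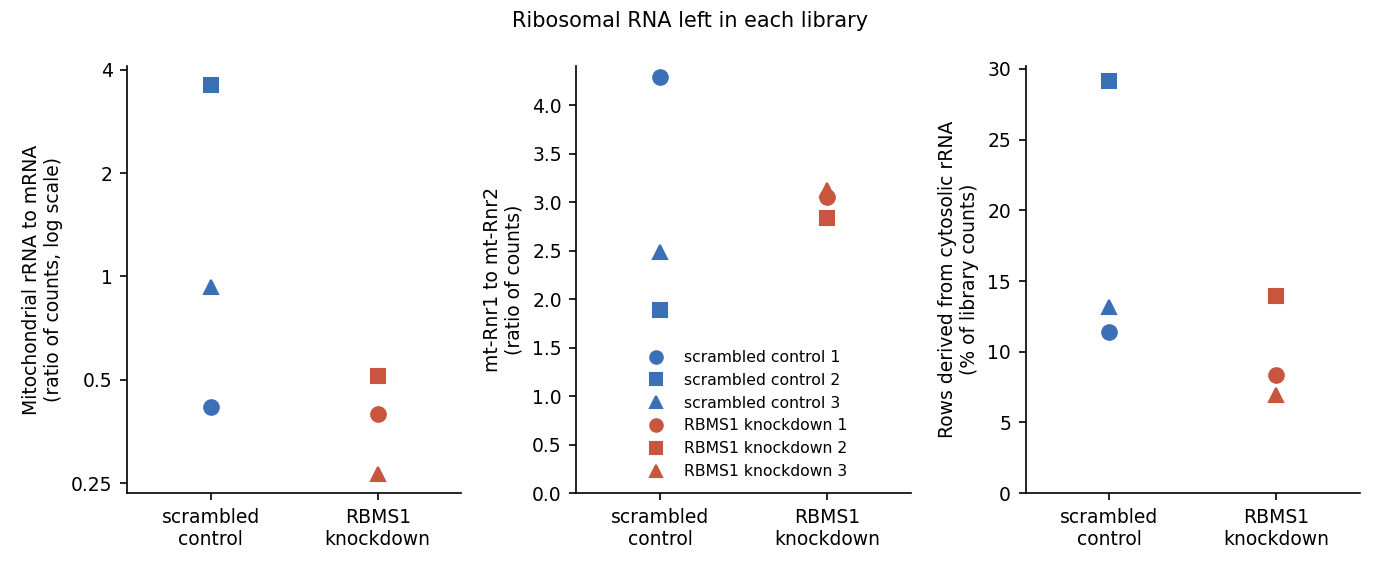
Ribosomal RNA in each library: the ratio of mitochondrial rRNA to mRNA counts (left, log axis), the ratio of mt-Rnr1 to mt-Rnr2 counts (middle) and the share of library counts in rows derived from cytosolic rRNA (right, %), with 1 point per library. Scrambled control 2 (blue square) is the highest in the left and right panels, at 3.61 and 29.1%, and the lowest in the middle panel, at 1.89.

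The tRNAs were almost absent from the table. All 22 tRNA genes, 59 to 75 bases long, had 4 counts between them in the 6 libraries, and 19 had none. mt-Tv, which carries valine and lies between mt-Rnr1 and mt-Rnr2, had 2 counts in control 1, mt-Tm had 1 in knockdown 1 and mt-Tl1 had 1 in knockdown 3. mt-Tv (chrM:1025-1093, plus strand) is shown because it fills the gap between the 2 rRNA genes and had the most counts of the class.
mt-Tv: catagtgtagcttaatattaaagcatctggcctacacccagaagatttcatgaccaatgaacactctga
No tRNA passed the filter on low counts, so none was tested. A count of 0 allows up to 3 counts, which is 0.220 to 1.49 CPM across these libraries and covers counting error only, so the tRNAs were not measurable here in either group. The insert length of the library preparation bears on such short RNAs and was not tested.

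The nuclear genes that make and process mitochondrial RNA were described from lists. None of the 16 genes for replication and transcription of mitochondrial DNA passed the edgeR test, 9 were below 0 and the median log2 fold change was -0.03. Those with the smallest p were Mterf1a (1.76 ± 0.72 CPM in the controls and 3.81 ± 0.19 in the knockdown libraries, SD, n = 3; log2 fold change 1.21 ± 0.44, SE, adjusted p = 0.298) and Mterf2 (10.2 ± 3.69 and 6.01 ± 0.65 CPM, SD, n = 3; -0.78 ± 0.30, SE, adjusted p = 0.331), both of the mitochondrial termination factor family. Of 23 genes for processing, stability and decay of mitochondrial RNA, none passed, 11 were below 0 and the median was 0.04. Hsd17b10, a subunit of the mitochondrial RNase P that cuts the 5′ ends of tRNAs, came nearest. It stood at 60.8, 78.9 and 61.9 CPM in the controls and 46.3, 30.7 and 33.4 CPM in the knockdown libraries. These did not overlap, and the log2 fold change was -0.87 ± 0.20 (SE, edgeR, adjusted p = 0.111). The next, the RNA helicase gene Supv3l1, was at 0.23 ± 0.17 (SE, edgeR, adjusted p = 0.636). Of 8 genes for rRNA modification 7 were tested, 4 were below 0 (median -0.05) and none passed, with Mrm1 at -0.53 ± 0.45 and Nsun4 at 0.23 ± 0.35 (SE). Of 22 mitochondrial aminoacyl-tRNA synthetases and related enzymes 12 were below 0 (median -0.07) and none passed. Gatb was at -0.66 ± 0.21 (SE, edgeR, adjusted p = 0.226).

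The nuclear genes whose products join the mitochondrial subunits in the same complexes were lower in most cases in the TMM-scaled fit. These lists were not summarized without TMM factors, where the median of all tested genes was 0.37, nor without control 2. Over all tested genes 49.6% were below 0 and 0.909% fell in edgeR. Of 36 complex I genes 31 were below 0 (median -0.39) and 2 fell. They were Ndufb7, at 27.6, 37.2 and 25.8 CPM in the controls and 13.2, 11.6 and 14.2 CPM in the knockdown libraries (-1.20 ± 0.21, SE, edgeR, adjusted p = 0.0499), and Ndufa13 (-1.16 ± 0.25, SE, edgeR, adjusted p = 0.0967). Both encode accessory subunits. Of 12 complex IV genes 11 were below 0 (median -0.40) and 1 fell, beside the same 0.909% of all genes. It was Cox4i1, a regulatory subunit, at 320, 418 and 346 CPM against 234, 189 and 196 CPM (-0.81 ± 0.17, SE, edgeR, adjusted p = 0.0842). All 9 complex III genes (median -0.30) and 16 of 17 complex V genes (median -0.36) were below 0 and none was called, with Uqcrh at -0.65 ± 0.23, Uqcrb at -0.49 ± 0.21, Atp5j2 at -0.67 ± 0.20 and Atp5c1 at -0.57 ± 0.18 (SE, edgeR, adjusted p = 0.270, 0.377, 0.210 and 0.221). The medians of these nuclear lists and that of the mitochondrial mRNAs with copies (-0.48) stood on the same side of the median of all tested genes. They come from the same libraries and are no independent support of each other.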

How the data were processed

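Total RNA of 6 samples was sequenced as stranded libraries after Ribo-zero plus depletion. The deposited values are estimated counts per gene, which the authors obtained from Salmon 1.9.0 after trimming (Trim Galore 0.6.7) and alignment by STAR 2.7.10a to the GRCm38 genome. The annotation release, strand setting and summing of transcripts to genes are not given in the sources used here. Estimated counts were rounded, and 11440 of 45706 genes passed filterByExpr. Groups were compared with edgeR 4.0.16 (quasi-likelihood test, TMM factors, R 4.3.3) over all tested genes, with Benjamini-Hochberg adjustment and calls at an adjusted p of 0.1 or less. This test gives no standard error, so each SE from edgeR was derived as the absolute log2 fold change over the square root of the F statistic. Sums, shares and ratios per library were compared by exact permutation tests (two-sided). Nuclear copies were found by aligning GENCODE M21 (GRCm38) transcripts with blastn 2.17.0, since transcripts and not a genome were at hand, and the fit was repeated with their counts added. That repeat was chosen after seeing the data. DESeq2 1.42.0, limma-voom (limma 3.58.1), other scalings, filters and rounding, a replicate block and leaving out each library were alternatives. In simulated counts with 200 changed genes at the size of this comparison, 76.7% of those tested were recovered (97.7% of those changed 4-fold), and 12.4% of the calls were false. All mRNAs and rRNAs are named, and of each gene list the called members or, without any, the 2 with the smallest p, except 1 gene that is not reported here. The members and lists were chosen with earlier results of these data known.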

Additional observations from a re-analysis of the deposited data

How the results depend on the processing

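The number of mitochondrial mRNAs called, 1 in edgeR (140 genes in all), was 7 in DESeq2 (430 genes). It was 0 with limma-voom (116 genes), RLE size factors (132 genes) and library sizes over nuclear genes only (134 genes). In these last 2 fits mt-Co2 stood just above the threshold (edgeR, adjusted p = 0.104 and 0.102). The number was also 0 with the earlier edgeR quasi-likelihood estimate and with the nuclear copies added (139 genes), both chosen after seeing the data. When each library was left out, the mitochondrial mRNAs called ranged from 0 to 2, where the calls over all genes ranged from 12 (without control 2) to 696 (without knockdown 1). Their median log2 fold change was -0.30 with library sizes alone, where the median of all genes was 0.37, and -0.84 to -0.53 with a library left out. The summed mRNAs were at -0.18 with library sizes alone, and at -0.68 to -0.51 with a library left out. The log2 difference of the mt-Nd6 share, 0.08, ranged from -0.090 to 0.29 with a library left out (-0.090 without knockdown replicate 1). No rRNA or tRNA was called under any alternative run. Single genes turned direction in mt-Nd2 (0.10 with library sizes alone, with or without copies), mt-Atp6 (0.0075 with copies and library sizes alone) and mt-Nd3 (0.21 with copies). Of 225 values of single genes as deposited under the other tests, scalings, filters, rounding and sets of libraries, 224 stayed below 0, while with the copies added 12 of 150 were above 0, 10 of them mt-Nd3. A fit with a replicate block called 0 mRNAs and gave mt-Co2 an adjusted p of 0.174 (edgeR), and 39 genes in all against 140. Correlations between libraries of the same number were -0.14, 0.08 and -0.03, and those between different numbers ran from -0.17 to 0.21. With 3 libraries per group, these values cannot show whether the numbers pair the samples. The median of the tested tRNAs and the tRNA to mRNA ratio gave no value, since no tRNA passed the filter and libraries were at 0. The causes of these changes were not tested.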
